A study of Homo sapiens with 12 samples.

Results

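The long arm of human chromosome 7 holds 5 stretches of neighbouring genes whose transcripts were mostly higher in leukaemia cells that carry an EVI1 vector than in the same cells with an empty vector. They comprise 53 genes of 14080 tested across the genome, listed by symbol from MTERF1 to ZNF277. The genes were selected on the EVI1 minus vector differences of these same arrays, under ATRA and under DMSO. The differences between EVI1 and vector cells are therefore a description and carry no test. What the choice did not use is the response of the same genes to retinoic acid averaged over EVI1 and vector cells, which is tested.

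The cells were of U937, an established line from a human leukaemia of the monocyte lineage. They had been transduced with an EVI1 expression vector or with the empty vector. EVI1, a product of the MECOM locus, is a DNA-binding protein with zinc fingers, and is active in a group of aggressive myeloid leukaemias. All-trans retinoic acid (ATRA), which drives myeloid cells to mature, was given at 1 µM for 24 h, and the other cells received its solvent DMSO. The groups were EVI1 cells with ATRA, EVI1 cells with DMSO, vector cells with ATRA and vector cells with DMSO, each with 3 arrays that the series describes as biological replicates. The labels do not say whether each line is a clone or a pool, so the effect of EVI1 and any other difference between the 2 lines cannot be told apart.

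Levels are log2 values from Affymetrix 3′ expression arrays, on which a probe set reads a transcript near its 3′ end. A difference of 1 is a doubling, and levels of different probe sets are not comparable as amounts. The 12 arrays had medians of 5.29 to 5.35, and 13401 to 13774 genes per array reached a log2 value of 5. Genes were tested if they reached 5 on at least 3 arrays. The 5 probe sets for MECOM read 2.61 to 3.60 on all arrays. The sources used here do not say whether the vector's transcript holds their target, so they do not check the EVI1 label. Of the 9 monocytic markers named on the arrays, 8 passed this limit, among them LYZ and PTPRC, and the monocyte receptor gene FCGR1A did not. The mean over these 9 genes was 7.29 to 8.38 on an array. For each list of megakaryocyte, erythroid, epithelial, stromal, B, and T or NK markers, the mean over its named genes was between 4.74 and 6.20 on every array. The limit was passed by 6 of 6 named erythroid, 5 of 6 megakaryocyte and 4 of 5 B markers. So did 5 of 8 T or NK, 3 of 6 epithelial and 5 of 8 stromal markers, and EPCAM and MS4A1 did not. Group means ran from 10.57 to 12.17 for PECAM1, 7.78 to 7.98 for EPOR, 7.34 to 7.95 for NKG7 and 7.31 to 7.70 for COL1A1. Those of the monocytic marker MPO were 5.16 to 5.38. Of 28 tested markers of other cell types, CD79B and PECAM1 were higher in EVI1 cells under ATRA by 0.77 and 1.00 (limma, adjusted p = 0.0089 and 0.017), and their part in the results was not tested.

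Genes of this region are known in myeloid biology because loss of the long arm of chromosome 7 recurs in myelodysplastic syndrome and acute myeloid leukaemia. SAMD9 and SAMD9L restrain cell growth and are induced by interferon. CDK6 drives entry into the cell cycle, PIK3CG encodes the catalytic subunit of a phosphoinositide 3-kinase used by leukocytes, and NAMPT makes the precursor from which cells rebuild NAD. In the order of the chromosome the stretches run from MTERF1 to BET1 (11 genes), from SEM1 to ARPC1A (11), from ZNF789 to ZKSCAN1 (10), from PUS7 to COG5 (11) and from DUS4L to ZNF277 (10).

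All 53 listed genes passed the signal limit, 48 of them on all 12 arrays. For 52 genes at least 3 vector arrays reached 5, so they would have passed on vector cells alone. EFCAB10, with 2 such vector arrays, passed through its EVI1 arrays. It is still counted in the totals and medians below, among them the genes whose EVI1 arrays lay above the vector arrays. MTERF1 reached 5 on 6 arrays, all of vector cells, and DOCK4 on 4, so both lie near the limit. Just outside it, LOC101927550 reached 5 on 2 arrays with a highest value of 5.41, SLC26A4 on 2 with 5.29 and ERVW-1 on 2 with 5.06. The stretches also span LOC101927610 and CBLL1-AS1, which were tested but are not listed.

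The median difference of EVI1 minus vector cells over the 53 genes was 0.77 under ATRA (1.70-fold) and 0.69 under DMSO (1.61-fold). The difference was positive for 43 of 53 genes under ATRA and for 47 of 53 under DMSO. All 3 EVI1 arrays lay above all 3 vector arrays for 38 of 53 genes under ATRA and 38 of 53 under DMSO, and for 32 genes under both. Among all tested genes 12% were separated in this way under ATRA and 8.23% under DMSO. All 3 EVI1 arrays lay below the vector arrays for MTERF1 alone under each agent, against 9.03% of all genes under ATRA and 6.35% under DMSO. The choice of genes fixed these counts, and nothing is read from them. In bulk RNA, a difference in every cell and a larger difference in some of the cells cannot be told apart.

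**Figure D1:**
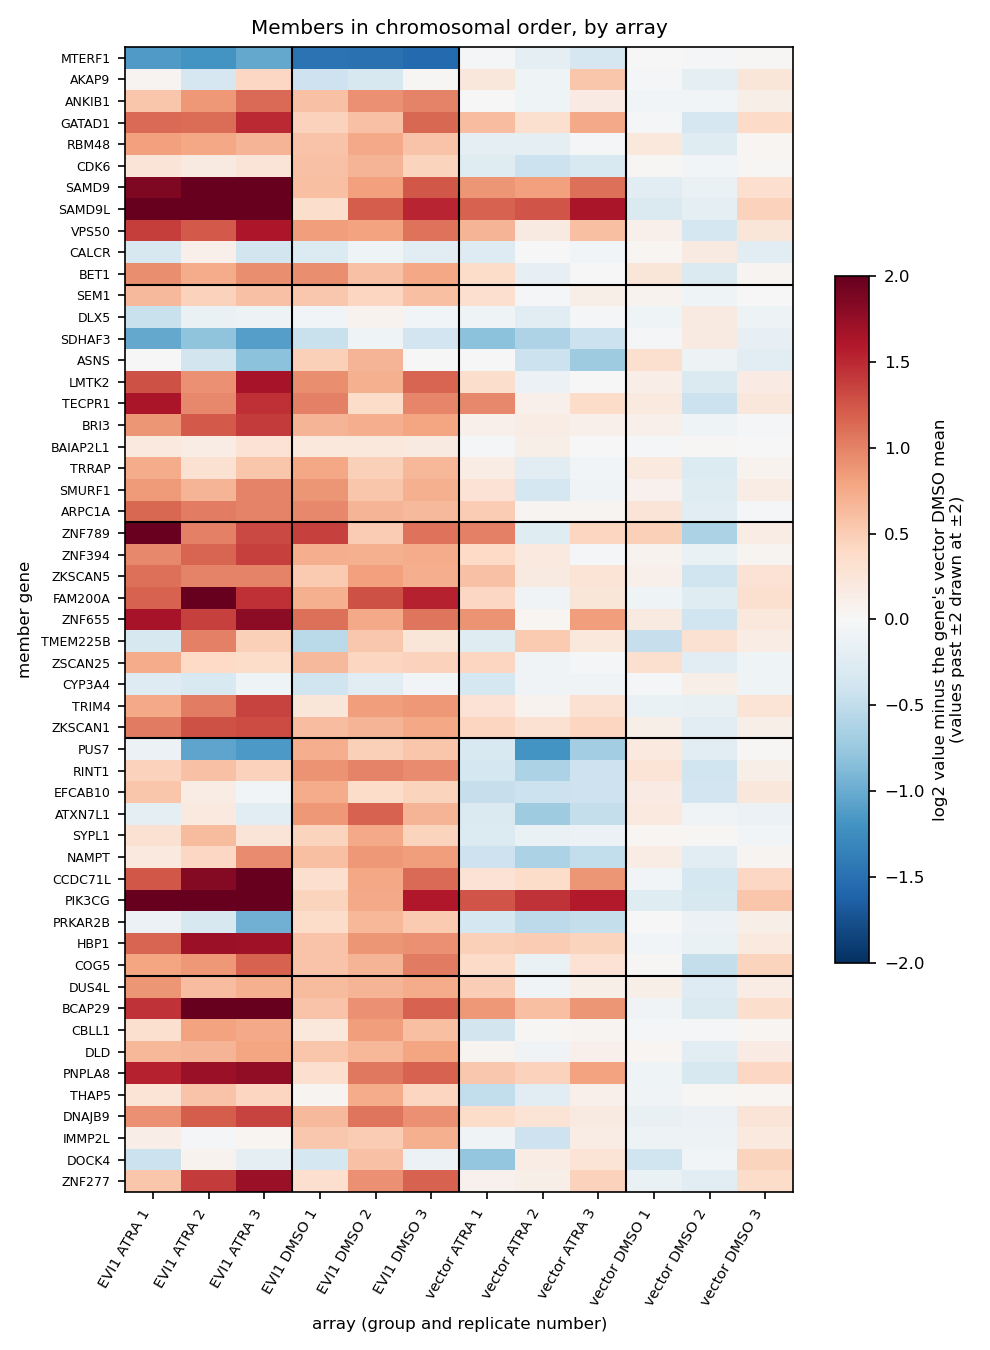
Level of each of the 53 genes (rows, in chromosomal order, with lines between the stretches) on each of the 12 arrays (columns, grouped as EVI1 ATRA, EVI1 DMSO, vector ATRA and vector DMSO), as the log2 value minus the mean of the gene's 3 vector DMSO arrays. Most rows are red on the EVI1 arrays, while MTERF1, with group means of 4.87 and 4.48 in EVI1 cells, is blue.

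The median gene of the list stood at 0.74, 0.77 and 0.92 above its vector DMSO mean on the EVI1 ATRA arrays and at 0.57, 0.68 and 0.74 on the EVI1 DMSO arrays. It stood at 0.23, −0.07 and 0.11 on the vector ATRA arrays and at 0.03, −0.20 and 0.14 on the vector DMSO arrays. No EVI1 array fell into the range of the vector arrays by this measure. Taken between arrays of the same replicate number, the median difference of EVI1 minus vector was 0.56, 0.90 and 0.73 under ATRA for numbers 1, 2 and 3. Under DMSO it was 0.52, 0.88 and 0.59. Between 42 and 48 of the 53 genes were positive in each of these 6 comparisons.

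The stretches differed little in their medians. The MTERF1 to BET1 stretch had a median difference of 0.79 under ATRA and 0.73 under DMSO, the SEM1 to ARPC1A stretch 0.57 and 0.64, and the ZNF789 to ZKSCAN1 stretch 0.82 and 0.69. The median of the PUS7 to COG5 stretch was 0.77 under ATRA and 0.76 under DMSO, and that of the DUS4L to ZNF277 stretch 0.70 and 0.68. Within the stretches the genes ranged more widely, with an SD over genes of the averaged difference between 0.27 for PUS7 to COG5 and 0.72 for MTERF1 to BET1.

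**Figure D2:**
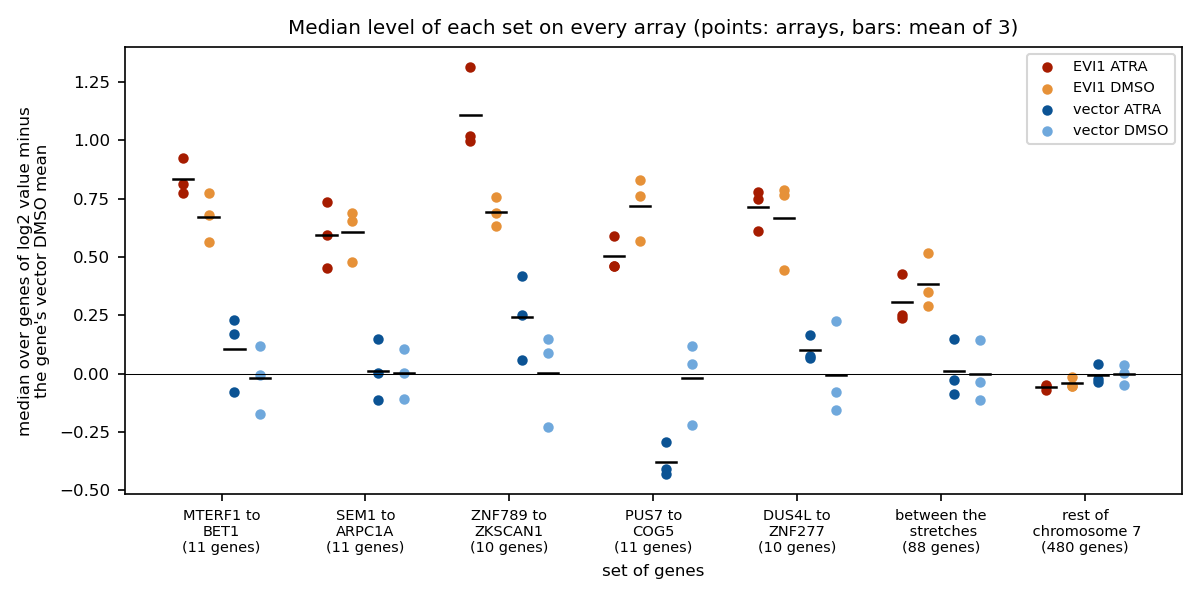
Median over the genes of each set of the log2 value minus the gene's vector DMSO mean (vertical axis), on every array (points) with the mean of 3 arrays (bars), for the 5 stretches, the 88 tested genes that lie between them and the 480 tested chromosome 7 genes outside MTERF1 to ZNF277 and the 10 genes on each side of it. In all 5 stretches the EVI1 arrays lie above the vector arrays, and for those 480 genes all arrays lie between −0.07 and 0.04.

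Among the genes that act on growth, CDK6, the kinase partner of D-type cyclins, read 12.11, 12.04 and 12.11 in EVI1 cells against 11.62, 11.43 and 11.55 in vector cells under ATRA. Under DMSO it read 12.45, 12.54 and 12.31 in EVI1 cells against 11.89, 11.80 and 11.89 in vector cells. The groups did not overlap under either agent, and EVI1 cells stood 0.55 higher under ATRA and 0.57 higher under DMSO. CDK6 had 6 other probe sets that passed the signal limit, and their averaged differences ran from 0.13 to 0.93, all positive.

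SAMD9 and SAMD9L are adjacent paralogues. SAMD9 read 9.59, 10.10 and 10.88 in EVI1 cells against 8.61, 8.55 and 8.83 in vector cells under ATRA, and 8.33, 8.54 and 8.96 in EVI1 cells against 7.52, 7.59 and 8.06 in vector cells under DMSO. SAMD9L read 9.14, 9.60 and 10.02 in EVI1 cells against 8.22, 8.29 and 8.66 in vector cells under ATRA. Under DMSO its levels were 7.39, 8.24 and 8.56 in EVI1 cells against 6.75, 6.86 and 7.49 in vector cells, which overlap through the lowest EVI1 array. Averaged over both agents, SAMD9 was 2.31-fold and SAMD9L 2.16-fold higher in EVI1 cells, the largest differences of their stretch.

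Of the signalling genes, PIK3CG read 13.24, 13.68 and 13.71 in EVI1 cells against 12.47, 12.67 and 12.81 in vector cells under ATRA. Under DMSO it read 11.66, 11.97 and 12.82 in EVI1 cells against 10.98, 10.90 and 11.78 in vector cells. The ATRA groups were separate and the DMSO groups overlapped by 1 vector array. PRKAR2B, a regulatory subunit of protein kinase A, read 9.44, 9.23 and 8.59 in EVI1 cells against 9.20, 9.03 and 9.07 in vector cells under ATRA, and 9.92, 10.21 and 10.07 in EVI1 cells against 9.56, 9.43 and 9.67 in vector cells under DMSO. Its EVI1 arrays were separate only under DMSO, and its averaged difference of 0.25 was the smallest of its stretch. LMTK2, a membrane-anchored kinase, had an averaged difference of 1.07 with the probe set used here and of 0.39 with the mean of all its probe sets. It read 8.67, 8.30 and 9.04 in EVI1 cells against 7.74, 7.28 and 7.40 in vector cells under ATRA, and 8.33, 8.11 and 8.55 in EVI1 cells against 7.53, 7.10 and 7.55 in vector cells under DMSO.

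The list holds several metabolic enzymes. NAMPT read 9.78, 10.00 and 10.52 in EVI1 cells against 9.17, 8.94 and 9.09 in vector cells under ATRA, and 10.18, 10.45 and 10.41 in EVI1 cells against 9.73, 9.37 and 9.64 in vector cells under DMSO. DLD, the dihydrolipoamide dehydrogenase shared by pyruvate dehydrogenase and its relatives, read 12.23, 12.25 and 12.36 in EVI1 cells against 11.62, 11.49 and 11.67 in vector cells under ATRA. Its DMSO levels were 12.12, 12.23 and 12.36 in EVI1 cells against 11.60, 11.36 and 11.73 in vector cells. Both enzymes were separate under each agent, NAMPT by 0.90 and DLD by 0.68 on average. PNPLA8, a phospholipase of intracellular membranes, read 9.83, 10.03 and 10.07 in EVI1 cells against 8.84, 8.76 and 9.10 in vector cells under ATRA. Its DMSO levels of 8.64, 9.35 and 9.48 in EVI1 cells overlapped the 8.21, 7.97 and 8.71 of vector cells.

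ASNS, which makes asparagine and is induced when amino acids are scarce, did not stand apart. It read 8.89, 8.52 and 8.06 in EVI1 cells against 8.88, 8.46 and 8.17 in vector cells under ATRA. Under DMSO it read 9.36, 9.56 and 8.89 in EVI1 cells against 9.21, 8.78 and 8.67 in vector cells, and the groups overlapped under both agents. SDHAF3, an assembly factor of succinate dehydrogenase, lay lower in EVI1 cells by 0.36 under ATRA and 0.30 under DMSO, in all 6 pairs of same-number arrays, while its groups overlapped. It read 8.55, 8.77 and 8.47 in EVI1 cells against 8.75, 8.96 and 9.15 in vector cells under ATRA, and 9.13, 9.49 and 9.20 in EVI1 cells against 9.56, 9.75 and 9.42 in vector cells under DMSO.

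Several listed genes act in membrane traffic. RINT1, part of a tether between the endoplasmic reticulum and the Golgi, read 9.53, 9.66 and 9.53 in EVI1 cells against 8.72, 8.43 and 8.66 in vector cells under ATRA, and 9.97, 10.06 and 10.01 in EVI1 cells against 9.35, 8.67 and 9.19 in vector cells under DMSO. BCAP29, a membrane protein of the endoplasmic reticulum, read 10.13, 10.69 and 10.97 in EVI1 cells against 9.55, 9.29 and 9.57 in vector cells under ATRA, and 9.25, 9.60 and 9.86 in EVI1 cells against 8.61, 8.40 and 9.04 in vector cells under DMSO. Both were separate under each agent, by 0.96 and 1.01 on average. The SNARE BET1 (0.78), the Golgi tether subunit COG5 (0.76), the endosomal tether subunit VPS50 (0.91) and the vesicle protein SYPL1 (0.56) were separate under each agent as well. TECPR1, which acts in the fusion of autophagosomes with lysosomes, averaged 0.83 higher, and its groups were separate only under DMSO.

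Among genes of chromatin, transcription and RNA, TRRAP, the scaffold of histone acetyltransferase complexes, read 10.38, 9.95 and 10.20 in EVI1 cells against 9.79, 9.43 and 9.59 in vector cells under ATRA. Its DMSO levels were 10.41, 10.12 and 10.31 in EVI1 cells against 9.84, 9.37 and 9.72 in vector cells, so both pairs of groups were separate. FAM200A, a gene derived from a transposase, had the largest averaged difference of the list, at 2.41-fold. It read 6.11, 6.97 and 6.38 in EVI1 cells against 5.34, 4.86 and 5.16 in vector cells under ATRA, and 5.64, 6.19 and 6.46 in EVI1 cells against 4.84, 4.68 and 5.25 in vector cells under DMSO. Only 3 of its 6 vector arrays reached 5, so its vector level lies at the signal limit. The second probe set of FAM200A, under that limit at a mean of 2.85, gave an averaged difference of 0.12. The zinc finger gene ZNF789 averaged 1.01 higher but was separate only under DMSO, with 8.23, 7.38 and 7.96 in EVI1 cells against 7.35, 6.24 and 7.01 in vector cells. Under ATRA it read 8.84, 7.88 and 8.19 in EVI1 cells against 7.88, 6.62 and 7.29 in vector cells, where the lowest EVI1 array equalled the highest vector array.

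The other zinc finger genes of the list, ZNF394, ZKSCAN5, ZNF655, ZSCAN25, ZKSCAN1 and ZNF277, had averaged differences from 0.46 for ZSCAN25 to 0.99 for ZNF655. The transcriptional repressor HBP1 averaged 0.92, the chromatin factor GATAD1 0.71, the zinc finger protein THAP5 0.52 and RBM48, which acts in splicing of minor introns, 0.76. Those of the tRNA dihydrouridine synthase DUS4L and of ATXN7L1, a relative of the acetyltransferase subunit ATXN7, were 0.62 and 0.66. The ubiquitin ligases ANKIB1 (0.82), SMURF1 (0.80), TRIM4 (0.73) and CBLL1 (0.63), the chaperone DNAJB9 of the endoplasmic reticulum (0.88), the actin regulator ARPC1A (0.81) and the proteasome subunit SEM1 (0.47) were likewise higher. BRI3 and CCDC71L averaged 0.90 and 1.03 higher, the mitochondrial peptidase IMMP2L 0.37, EFCAB10 0.59 and BAIAP2L1, which links membranes to actin, 0.20.

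The label of the list did not hold for every gene. MTERF1, a factor that ends transcription on mitochondrial DNA, was lower, with 4.85, 4.79 and 4.97 in EVI1 cells against 5.95, 5.79 and 5.65 in vector cells under ATRA. Under DMSO it read 4.51, 4.49 and 4.43 in EVI1 cells against 5.98, 5.97 and 6.01 in vector cells, so its EVI1 arrays all lay under the signal limit and its vector arrays all above it. AKAP9, a scaffold for protein kinase A at the Golgi and centrosome, lay lower by 0.18 under ATRA and 0.24 under DMSO, in all 6 pairs of same-number arrays, while its groups overlapped. Of the 53 genes, 41 were positive in all 6 pairs, and MTERF1, AKAP9 and SDHAF3 were negative in all 6. The calcitonin receptor gene CALCR (−0.15 on average), the homeobox gene DLX5 (−0.07), the guanine nucleotide exchange factor gene DOCK4 (−0.01) and TMEM225B (0.15) also overlapped under each agent.

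DOCK4 read 4.44, 4.95 and 4.69 in EVI1 cells against 4.10, 5.02 and 5.14 in vector cells under ATRA, and 4.52, 5.46 and 4.75 in EVI1 cells against 4.48, 4.82 and 5.32 in vector cells under DMSO. All 3 EVI1 ATRA arrays lay under the signal limit, and the other groups straddled it. CYP3A4, a drug-metabolising enzyme of liver, read 6.71, 6.67 and 6.89 in EVI1 cells against 6.62, 6.90 and 6.90 in vector cells under ATRA, and 6.57, 6.76 and 6.92 in EVI1 cells against 6.94, 7.09 and 6.89 in vector cells under DMSO. It has close relatives in the same cluster, so which of them its probe set read is uncertain.

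The size of the difference went with the array level. The 41 genes with a vector mean of 7 or more had a median averaged difference of 0.78, the 6 with a mean of 6 to 7 had 0.43, and the 6 under 6 had −0.04. Of the 41, EVI1 cells were higher for 36 under ATRA and 39 under DMSO, and all EVI1 arrays lay above all vector arrays for 32 under each agent. Background signal forms a larger share of a low array level. Its part in this relation was not tested.

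**Figure D3:**
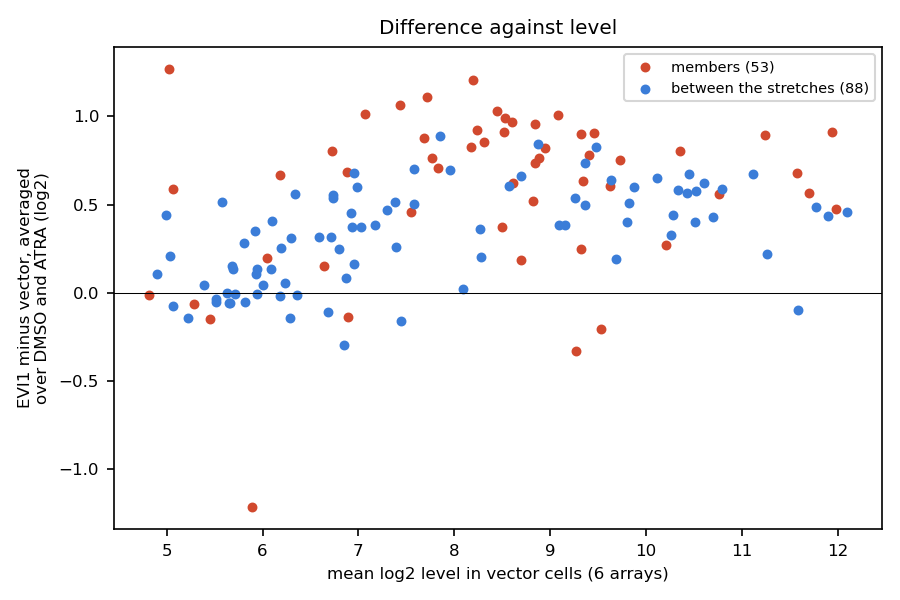
EVI1 minus vector difference averaged over both agents (vertical axis, log2) against the mean level over the 6 vector arrays (horizontal axis, log2) for the 53 listed genes and the 88 tested genes between the stretches. Listed genes with a vector mean of 7 or more have a median difference of 0.78, and the genes between the stretches at the same levels 0.50.

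The listed genes had 145 probe sets in all, and 42 genes had more than 1. Of the 92 probe sets not used above, 64 from 33 genes passed the signal limit, and EVI1 cells were higher under both agents for 60 of them, with a median averaged difference of 0.67. With a mean level of 7 or more, 35 of 35 were higher under both agents, with a median of 0.77. The second probe set of SAMD9 gave 1.22 and that of SAMD9L 1.29 on average, those of PIK3CG 1.09 and 1.16, and that of DLD 0.67. Some differed from the probe set used above: the second of LMTK2 gave 0.12 and that of BRI3 0.30, and 1 of BCAP29 gave −0.12 and 1 of TRIM4 −0.05. With the mean of all its probe sets, the averaged difference was more than 1.5 times smaller for LMTK2 (0.39), BRI3 (0.38), HBP1 (0.42), SMURF1 (0.38), TRIM4 (0.37), ATXN7L1 (0.35), CCDC71L (0.58), BCAP29 (0.57), VPS50 (0.56) and THAP5 (0.33), and near 0 for ASNS and CYP3A4, and larger for BAIAP2L1 (0.38). FAM200A also had a smaller mean, since its only other probe set, under the signal limit, gave 0.12 against 1.27. All these probe sets read the same arrays and are no further sample.

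Apart from MTERF1 and AKAP9, the listed genes lay within a longer run of the chromosome. In the order of 641 tested chromosome 7 genes, 88 further tested genes lie between the stretches: 4 between BET1 and SEM1, 5 between ARPC1A and ZNF789, 77 between ZKSCAN1 and PUS7 and the 2 unlisted genes inside stretches. Their median difference was 0.32 under ATRA and 0.39 under DMSO, and 71 of 88 were positive under ATRA and 76 under DMSO. All EVI1 arrays lay above all vector arrays for 34 of the 88 under ATRA and 45 under DMSO, where 12% and 8.23% of all genes were so separated. Among the 44 with a vector mean of 7 or more, the medians were 0.50 and 0.51, and 41 under ATRA and 43 under DMSO were positive. The listed genes, whose medians were larger, had been picked for their size.

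A run from ANKIB1, the third listed gene, to FAM3C, beyond the last one, was delimited after its values were seen. It holds 155 tested genes, and 94 of them had a vector mean of 7 or more. Of those 94, EVI1 cells were higher for 87 under ATRA and 92 under DMSO, with medians of 0.62 and 0.59. At its left edge AKAP9 lay at −0.18 under ATRA and −0.24 under DMSO, and its neighbour ANKIB1 at 0.82 and 0.83. At its right edge FAM3C lay at 0.63 under ATRA and 0.56 under DMSO, and the next tested gene, NDUFA5, at 0.02 and −0.32. The running median of 11 genes, averaged over both agents, lay between −0.04 and 0.77 inside the run and between −0.31 and 0.54 outside it, so the ranges overlapped.

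The tested genes on each side of the run did not share the difference. The edges were set after the values were seen, so the choice favoured such flanks and nothing is read from them. The 10 tested genes before ANKIB1 had medians of −0.25 under ATRA and −0.09 under DMSO, and the 10 after FAM3C 0.01 and −0.04. Among those before it, CLDN12 lay at −1.48 and −1.36, CDK14 at −0.63 and −0.75 and MTERF1 at −0.93 and −1.51. MTERF1 passed the signal limit only through its vector arrays, and the EVI1 means of CLDN12, 4.60 under ATRA and 4.32 under DMSO, also lay under that limit. The 10 genes after ZNF277, the last listed gene, still had medians of 0.32 under ATRA and 0.50 under DMSO. The 480 tested chromosome 7 genes outside MTERF1 to ZNF277 and the 10 genes on each side of it had a median of −0.04 under each agent. The medians of the 22 other chromosomes lay between −0.09 and 0.04 under ATRA and between −0.07 and 0.06 under DMSO.

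**Figure D4:**
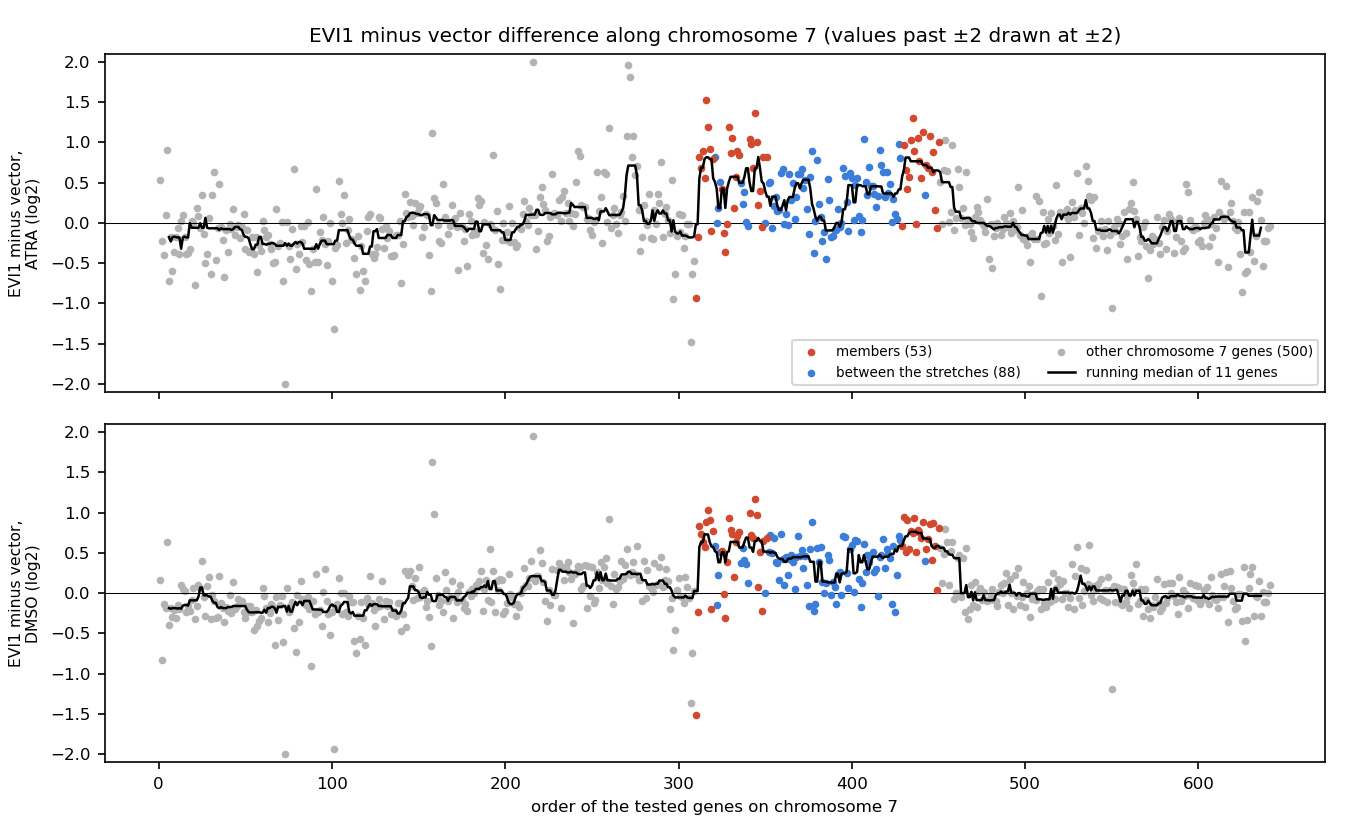
EVI1 minus vector difference (vertical axes, log2) of every tested gene of chromosome 7 in chromosomal order (horizontal axis, rank of the gene), under ATRA (upper panel) and DMSO (lower panel), with the running median of 11 genes as a line. The line steps up next to ANKIB1, at rank 312, and returns towards 0 near FAM3C, at rank 466, and dips in between among the genes that separate the stretches.

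The ATRA response of the listed genes, averaged over EVI1 and vector cells, was not a criterion of their choice, though earlier results of these data were known. It was tested with limma over all 14080 genes. At an adjusted p under 0.05, 13 of the 53 rose and 9 fell, and 22.4% of all genes passed in either direction, 11.1% rising and 11.3% falling. These shares were not matched for array level. A vector mean of 7 or more was found for 41 of the 53, against 8060 of 13412 genes of the other chromosomes. The 22 of 53 that passed split by stretch into 5 of 11 (MTERF1 to BET1), 3 of 11 (SEM1 to ARPC1A), 3 of 10 (ZNF789 to ZKSCAN1), 8 of 11 (PUS7 to COG5) and 3 of 10 (DUS4L to ZNF277). The median ATRA minus DMSO difference over the list was 0.10, against −0.01 over all genes.

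SAMD9L, PIK3CG and SAMD9 rose most. SAMD9L was higher with ATRA on every array of each cell type, at 9.14, 9.60 and 10.02 with ATRA against 7.39, 8.24 and 8.56 with DMSO in EVI1 cells, and at 8.22, 8.29 and 8.66 with ATRA against 6.75, 6.86 and 7.49 with DMSO in vector cells. By limma its averaged rise was 1.44 ± 0.22 (SE, adjusted p = 0.00089). Those of PIK3CG and SAMD9 were 1.41 ± 0.21 (adjusted p = 0.00075) and 1.26 ± 0.20 (adjusted p = 0.0011), and the ATRA and DMSO arrays were separate within each cell type for these genes as well. BCAP29 rose by 0.91 ± 0.16, CCDC71L by 0.79 ± 0.21, PNPLA8 by 0.71 ± 0.16, ZNF655 by 0.61 ± 0.16 and HBP1 by 0.60 ± 0.11. The other rises were those of GATAD1, VPS50, ZKSCAN1, ZNF394 and BRI3, from 0.27 to 0.54.

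PUS7, a pseudouridine synthase, fell most. It read 10.46, 9.51 and 9.42 with ATRA against 11.30, 11.04 and 11.13 with DMSO in EVI1 cells. In vector cells it read 10.26, 9.38 and 9.88 with ATRA against 10.76, 10.35 and 10.60 with DMSO, and the averaged difference was −1.04 ± 0.19 (limma, adjusted p = 0.0025). ATXN7L1 had 6.24, 6.62 and 6.19 with ATRA against 7.29, 7.61 and 7.11 with DMSO in EVI1 cells, and 6.13, 5.72 and 5.95 with ATRA against 6.62, 6.35 and 6.30 with DMSO in vector cells. It fell by 0.74 and PRKAR2B by 0.72, and for both the ATRA and DMSO arrays were separate in each cell type. SDHAF3 fell by 0.65, ASNS by 0.58, RINT1 by 0.45, NAMPT by 0.38, CDK6 by 0.34 and IMMP2L by 0.33. By these calls the PUS7 to COG5 stretch held both PIK3CG, CCDC71L and HBP1, which rose, and PUS7, RINT1, ATXN7L1, NAMPT and PRKAR2B, which fell.

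Of the 22 calls, 13 held under every alternative setting. The other 9 were lost under at least 1 of them. With the 12 arrays left out in turn, BRI3 lost its call in 11 cases, NAMPT and ZNF394 in 9 each, ASNS in 8, IMMP2L in 7, GATAD1 in 6 and ZNF655 in 3. Their highest adjusted p in limma under any alternative lay between 0.0541 for ZNF655 and 0.403 for BRI3. HBP1 and VPS50 lost theirs with the mean of all their probe sets. ITGAM, an integrin of mature myeloid cells, moved with ATRA as well, by 2.71 ± 0.41 (SE, limma, adjusted p = 0.0009), and 4 of 8 tested monocytic markers rose and none fell, where 11.1% of all genes rose. Their part in the response of the listed genes was not tested.

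**Figure D5:**
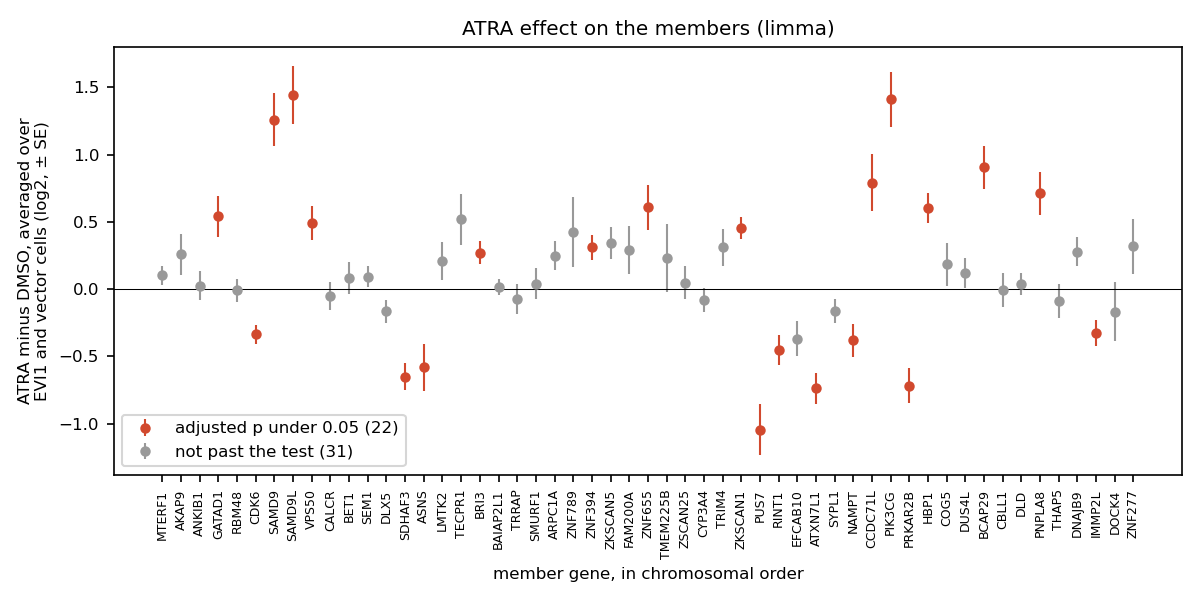
ATRA minus DMSO difference averaged over EVI1 and vector cells (vertical axis, log2, with the SE of the limma fit) for the 53 genes in chromosomal order, with the 22 genes past the test in red. SAMD9L, PIK3CG and SAMD9 stand highest (1.44, 1.41 and 1.26) and PUS7 lowest (−1.04).

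Within EVI1 cells, 11 of the 53 rose and 6 fell with ATRA, while 15.1% of all genes passed, 7.45% rising and 7.66% falling. Within vector cells PIK3CG and SAMD9L rose and SDHAF3 fell, 3 of 53 genes, while 3.52% of all genes passed, 2% rising and 1.52% falling. These 2 comparisons share their arrays with the ones that chose the genes. With the replicate number as a block, 29 of the 53 passed in EVI1 cells (35.7% of all genes) and 19 in vector cells (20% of all genes). The count in EVI1 cells was 10 without EVI1 ATRA array 2 or EVI1 DMSO array 2, and 8 without EVI1 ATRA array 3 or EVI1 DMSO array 1. That in vector cells was 0 without vector ATRA array 1, 2 or 3 or vector DMSO array 1, 1 without vector DMSO array 2 and 5 without EVI1 ATRA array 1.

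Whether ATRA acted differently in the 2 lines was tested by the interaction, the ATRA effect in EVI1 cells minus that in vector cells. None of the 53 genes passed in limma, nor did any of the 14080, with or without the replicate block. At an unadjusted p under 0.05, 1 of 53 listed genes, MTERF1, and 362 of all genes were found. With the block these counts were 7 and 1846. The median interaction over the list was 0.05, and the largest values were 0.64 ± 0.39 for SAMD9 and −0.63 ± 0.38 for PUS7 (SE). With 3 arrays a group, no difference in the ATRA response was detectable for these genes or any other. The interaction also equals the EVI1 minus vector difference under ATRA minus that under DMSO, the 2 comparisons that chose the genes. That choice could favour genes alike under both agents, so nothing is read from their lack of calls.

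The promoters of the listed genes were searched for short motifs. RefSeq (GRCh38.p14) gave promoter windows, from 250 bases before a start to 50 after it, for 48 of the 53 genes, 67 windows in all. The published EVI1 motif GACAAGATA and its form GATAAGATA, searched on both strands, occurred in 0 of the 67, and in 0.0968% and 0.0883% of 35116 promoters of the table. Motifs this rare would be absent from most sets of 67 windows, so nothing is read from their absence. The core of the interferon response element was taken as 2 copies of GAAA with 2 bases of any kind between them. It occurred in 2 of the 67 windows, those of SAMD9 and CCDC71L, and in 3.57% of all promoters, so nothing is read from it. The windows of SAMD9 and SAMD9L, which rose most with ATRA in the first stretch, are shown because they lie side by side and share runs of 10 bases. ASNS is shown with the element TGATGAAAC that answers to amino acid shortage, in 0.225% of all promoters. Each window lies on the minus strand, SAMD9 at chr7:93117930-93118229, SAMD9L at chr7:93148336-93148635 and ASNS, for 1 of its 2 starts, at chr7:97872359-97872658. Capitals mark the shared runs and, in ASNS, the element.
SAMD9: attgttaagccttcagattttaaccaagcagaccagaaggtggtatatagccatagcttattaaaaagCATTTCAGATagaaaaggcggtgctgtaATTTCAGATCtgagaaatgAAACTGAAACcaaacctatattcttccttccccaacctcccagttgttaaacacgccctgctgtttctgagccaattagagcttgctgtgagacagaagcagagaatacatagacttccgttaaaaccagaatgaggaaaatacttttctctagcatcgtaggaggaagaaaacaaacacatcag
SAMD9L: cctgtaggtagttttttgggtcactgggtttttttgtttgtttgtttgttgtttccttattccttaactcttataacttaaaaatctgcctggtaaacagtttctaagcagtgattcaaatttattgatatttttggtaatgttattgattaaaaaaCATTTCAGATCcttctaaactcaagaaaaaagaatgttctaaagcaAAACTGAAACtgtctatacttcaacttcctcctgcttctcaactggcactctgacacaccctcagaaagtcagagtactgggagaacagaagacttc
ASNS: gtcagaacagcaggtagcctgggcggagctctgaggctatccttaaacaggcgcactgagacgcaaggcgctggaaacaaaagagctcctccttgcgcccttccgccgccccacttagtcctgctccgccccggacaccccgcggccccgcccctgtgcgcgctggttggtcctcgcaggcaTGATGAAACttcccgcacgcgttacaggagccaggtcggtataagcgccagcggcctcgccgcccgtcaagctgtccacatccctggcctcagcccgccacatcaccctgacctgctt

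The run AAACTGAAAC starts 135 bases before the SAMD9 start and 47 before that of SAMD9L, and 0.157% of all promoters hold it. The runs CATTTCAGAT and ATTTCAGATC overlap each other in SAMD9L and stand apart in SAMD9. They occur in 0.094% and 0.0626% of all promoters. Each of the 3 runs occurred in these 2 windows alone among the 67. They were picked as the longest runs that these 2 windows share, so their sharing is no result. The element TGATGAAAC starts 68 bases before the ASNS start, and no other window of the list holds it. A match is a string of letters and was not tested as a binding site.

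Genes whose products work with those of the list were gathered in 13 partner lists and compared between the cell lines. The partner lists were chosen with earlier results of these data known. The counts of this paragraph come from the fit without the replicate block. Of 138 tested partners, 132 lie on other chromosomes. Their median EVI1 minus vector difference was 0.07 under ATRA and 0.02 under DMSO. Under ATRA 4 of the 132 were higher in EVI1 cells and 2 lower, where 5.61% of all genes passed, 3.28% higher and 2.33% lower. Under DMSO 1 was higher and none lower, where 1.21% of all genes passed, 0.533% higher and 0.682% lower. The counts lay near the shares of all genes, and nothing is read from them.

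Around CDK6, the CDK inhibitor gene CDKN1A averaged 10.64 ± 0.30 in EVI1 cells against 9.08 ± 0.16 in vector cells under ATRA (SD, n = 3 each, limma adjusted p = 0.0045). Under DMSO it averaged 9.15 ± 0.50 in EVI1 cells against 7.85 ± 0.27 in vector cells (limma adjusted p = 0.020). It was thus higher in EVI1 cells under both agents. The other differences of this paragraph are also EVI1 minus vector, among cells given ATRA. The cyclin gene CCND2 was lower in EVI1 cells by 0.58. PIK3R5, a regulatory partner of the kinase that PIK3CG encodes, was higher by 0.96 (limma, adjusted p = 0.0032). Beside the traffic genes RINT1 and BET1, the tether gene ZW10 was lower by 0.44. The interferon-stimulated genes XAF1 and IRF9 were higher in EVI1 cells by 1.22 and 1.12. ARPC1B, the paralogue of ARPC1A, lies between the stretches and was higher by 0.50 (limma, adjusted p = 0.024). Only CDKN1A under ATRA and PIK3R5 kept the call under every alternative.

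No partner of NAMPT, PRKAR2B, DLD, TRRAP, ASNS, DNAJB9, SDHAF3 or SEM1 passed in either comparison without the replicate block. With it, 45 of 138 partners passed under ATRA and 11 under DMSO, where 25.3% and 7.19% of all genes did. Of the 138, 7 had passed under ATRA and 1 under DMSO. The count under ATRA was 25 without EVI1 ATRA array 1, 3 without EVI1 ATRA array 2 or 3 and 4 without vector ATRA array 2 or 3. Under DMSO it was 2 without EVI1 ATRA array 3 or EVI1 DMSO array 1, and 0 without EVI1 DMSO array 2 or 3 or vector DMSO array 1 or 2. In the interferon list, whose genes share their inducer with SAMD9 and SAMD9L, the median of 17 tested genes was 0.79 under ATRA and 0.50 under DMSO. With the block 12 of these 17 were higher in EVI1 cells under ATRA, where 1824 of all 14080 genes were. Under DMSO 5 were, against 592 of all genes. Without the block 2 of the 17 were higher under ATRA and 0 under DMSO.

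With ATRA, averaged over both lines, 12 of the 17 interferon genes rose and none fell, with a median of 0.90, where 11.1% of all genes rose and 11.3% fell. OAS1, an antiviral enzyme gene, rose by 2.39 ± 0.40 (SE, limma, adjusted p = 0.0016), next to the rises of SAMD9 and SAMD9L. Of 15 further genes of the amino acid response to which ASNS belongs, 7 fell and 1 rose, against the same shares of all genes, 11.3% and 11.1%. PSAT1, of serine synthesis, fell by 1.25 and SLC3A2, an amino acid transporter subunit, by 0.82, while CEBPB, a myeloid transcription factor, rose by 1.75. Of 9 partners of CDK6, CDKN1A and CDKN2D rose by 1.36 and 0.95 and CDK4 fell by 0.49, against 11.1% of all genes rising and 11.3% falling.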

How the data were processed

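The authors deposited log2 expression values of 54675 probe sets, which per the submitters' processing notes come from RMA, run in Affymetrix Expression Console 1.3. No scaling was added. The array annotation gave 41097 probe sets exactly 1 gene symbol, for 19775 genes, and the 1801 with several symbols were left out. Where a gene had several probe sets, the brightest on average was used. Genes at log2 5 or more on at least 3 arrays were tested, which kept 14080. Gene order came from the RefSeq gene table of GRCh38.p14, since the sources used here name no build. 

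Group means of all 12 arrays were fitted with limma 3.58.1 in R 4.3.3 (lmFit, eBayes), with p-values adjusted over all 14080 genes by the Benjamini-Hochberg method and called at 0.05. The listed genes, partner lists and markers were chosen with earlier results of these data known. Values on each array are given for 10 fixed genes, the 2 largest and the smallest difference of each stretch, and the 8 largest ATRA differences. Arrays of the same replicate number deviated together from their group means (18 of 18 correlations over 0.1, from 0.408 to 0.704), and each of the 12 arrays matched its own number best. The numbers therefore pair the samples. The main calls and their SEs come from the fit without this pairing, and a fit with the number as a block was an alternative. Others changed the signal limit, the probe sets, the scaling or left out an array. The fit was also run on simulated data in which each array varied independently, without the pairing by number. That run does not check the calls for paired arrays. Precision is limited by the number of arrays.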

Additional observations from a re-analysis of the deposited data

Results flagged for a closer look

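MTERF1 moved in opposite directions with ATRA in the 2 lines. ATRA minus DMSO was 0.34, 0.30 and 0.54 at replicate numbers 1, 2 and 3 in EVI1 cells, and −0.03, −0.18 and −0.36 in vector cells. The difference between the lines was 0.583 on the log2 scale. It did not pass limma's interaction test (adjusted p = 0.998, and 0.346 with the replicate block), and all 6 EVI1 arrays lay under the signal limit of 5.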

How the results depend on the processing

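With the replicate number as a block, the count of listed genes called for ATRA was 29 in EVI1 cells and 19 in vector cells, against 17 and 3 without it, and the count of partner genes called between EVI1 and vector cells was 45 under ATRA and 11 under DMSO, against 7 and 1. The ATRA effect averaged over both lines gave 32 with the block against 22, where 40.6% and 22.4% of all genes passed, and the interaction 0. With the mean of all probe sets of a gene, the median EVI1 minus vector difference was 0.565 under ATRA and 0.523 under DMSO, against 0.767 and 0.69, and 1 gene was called for ATRA in vector cells. Leaving out 1 array at a time, the count for ATRA ran from 15 to 23 averaged over both lines, from 8 to 19 in EVI1 cells and from 0 to 5 in vector cells, and the interaction stayed at 0. The median EVI1 minus vector difference ran from 0.672 to 0.803 under ATRA and from 0.57 to 0.753 under DMSO. The count of partner genes ran from 3 to 25 under ATRA and from 0 to 2 under DMSO. Of 396 values of the 22 genes called for ATRA averaged over both lines, 334 kept the call, 62 lost it and 0 turned direction. The cause was not tested. With the mean of all probe sets, the averaged EVI1 minus vector difference of LMTK2 was 0.394, against 1.07, and that of BRI3 0.382, against 0.895. Values near the signal limit of 5, as for MTERF1, DOCK4, EFCAB10 and FAM200A, are limited by signal over background.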

Other observations

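A second, shorter run of chromosome 7 genes, from HIP1 to STYXL1, was chosen after its values were seen. Its 7 tested genes had a median EVI1 minus vector difference of 1.08 under ATRA and 0.27 under DMSO, and all 3 EVI1 arrays lay above all 3 vector arrays for 7 of 7 genes under ATRA and 5 of 7 under DMSO, where 12% and 8.23% of all genes were so separated. The difference between the agents was not tested for this run.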
